A study of Mus musculus with 6 samples.

Results

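The genes described here fell, in C2C12 myotubes given sorafenib, to a few percent of the level they had in DMSO. They were selected on their measured values: a mean over the 3 sorafenib libraries at most one twelfth of the DMSO mean (at least 12-fold lower), every sorafenib value below every DMSO value, and a DMSO mean of at least 200 normalized counts. Collagen and integrin genes, clone-named and predicted genes, and Lgr5, Lincmd1, Prelp, Mybpc1 and Mef2c were left out by name. Of the 55356 genes listed, 73 met the numeric conditions, 17 of these were left out by name, and 56 remained. Because selection used all 6 libraries of the only contrast, the levels of the 56 genes are given as a description, without a test.

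C2C12 is a mouse myoblast line whose cells fuse into multinucleate myotubes, a culture model of skeletal muscle that may keep unfused cells. In this study, 3 cultures of C2C12-derived muscle cells were given 20 µM sorafenib and 3 were given 0.1% DMSO, the solvent, each for 24 h in independent experiments. Sorafenib inhibits several protein kinases, among them RAF kinases and receptor tyrosine kinases, and is used against cancer. Poly(A) RNA was sequenced from all 6 cultures, and the labels give no genetic difference between the groups.

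Muscle cells make more than contractile fibres. They lay down a matrix of glycoproteins and proteoglycans around each fibre, send growth factors and Wnt or BMP modulators to their neighbours, and cluster acetylcholine receptors and acetylcholinesterase at the synapse with the motor nerve. Immediate-early transcription factors such as the EGR proteins are switched on within minutes of growth factor signalling through the RAF-MEK-ERK kinases, and HEYL-type repressors follow Notch signalling.

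The libraries had normalized totals of 70211431 to 70598400 in sorafenib and 77972419 to 78898086 in DMSO. The most common low nonzero value of each library, taken as about 1 read, was 0.913 to 1.19 normalized counts. Smaller nonzero values occurred, such as 0.5 for Thy1 in sorafenib replicate 1, so a read had no fixed value. The fit of all genes with limma called 37.8% of the 16645 genes tested lower in sorafenib and 38.8% higher (Benjamini-Hochberg adjusted p under 0.05). All 56 selected genes passed the filter on low values and were called lower; the selection used this contrast, so nothing is read from that count. Of 12 myotube marker genes all 12 were lower, with sums of 581207 to 693807 in sorafenib and 2094260 to 2248220 in DMSO, far above the sums of any other marker list in both groups. Fibroblast and tendon markers summed to 18916 to 21977 in sorafenib and 36651 to 40457 in DMSO. Of the 9 tested, 5 were lower, with Pdgfrb at 2832 in sorafenib and 16795 in DMSO, and 4 were higher, with Ly6a at 9102 in sorafenib and 6330.2 in DMSO. Osteoblast and chondrocyte markers summed to 5861 to 6981 in sorafenib and 5614 to 6243 in DMSO. Runx2 was higher, at 3877 in sorafenib and 2913 in DMSO, and the other 4 tested were lower. Among these 4 is Dmp1, a gene of the 56, so its call was fixed by the selection. Neuron and glia markers summed to 8256 to 8904 in sorafenib and 14550 to 14920 in DMSO. There Stmn2 was lower, at 1587 in sorafenib and 8224 in DMSO, and Tubb3 higher, at 5613 in sorafenib and 5004 in DMSO. Adipocyte markers summed to 1422 to 1468 in sorafenib and 1062 to 1116 in DMSO; Pparg was higher, at 779 in sorafenib and 293 in DMSO, and the other 2 tested were lower. Their part in the results was not tested. In bulk RNA, fewer cells of a type and less RNA per cell cannot be told apart.

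The 56 genes were 12.1 to 97.6-fold lower in sorafenib, with a median of 16.9-fold. Of them 26 lay between 12-fold and 16-fold, 20 were at least 20-fold lower and 8 at least 30-fold lower. In 31 of the 56, even the lowest DMSO value was at least 12 times the highest sorafenib value. Sorafenib means ran from 2.45 to 6322 normalized counts with a median of 34.1, and DMSO means from 204.3 to 162095 with a median of 628. The selection took 1.84% of genes with a DMSO mean of 200 to 500, 0.469% of those from 500 to 2000, 0.252% of those from 2000 to 10000 and 0.182% of those above. The opposite selection, of genes with a sorafenib mean of at least 200 and a DMSO mean at most one twelfth of it, would take 83 genes, to be set beside the 73 found before any gene was left out by name.

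**Figure D1:**
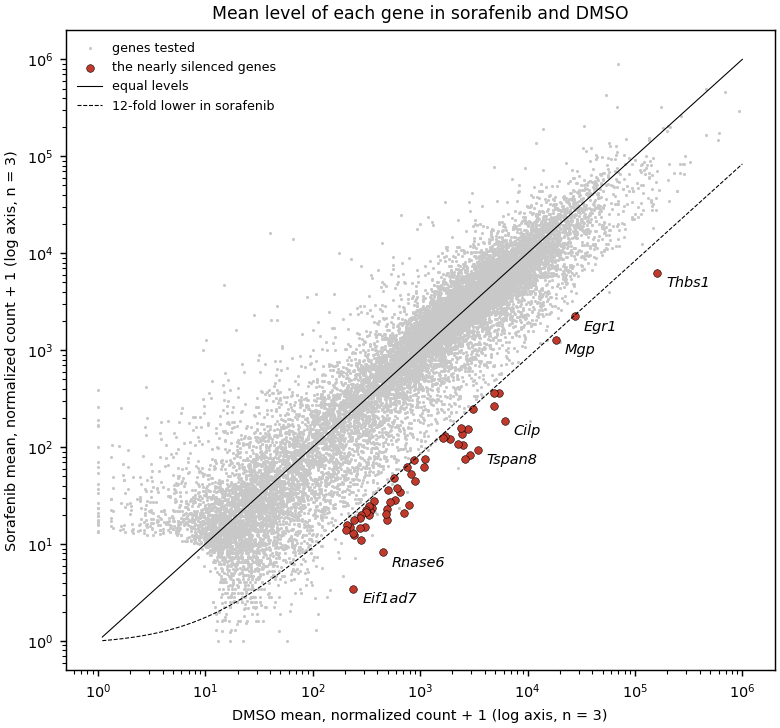
Mean normalized count + 1 of each of the 16645 genes tested in sorafenib (vertical log axis) and DMSO (horizontal log axis), with the 56 nearly silenced genes in red. The red points lie along and below the dashed 12-fold line over the whole range, from Eif1ad7 at the low end to Thbs1 at the high end.

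Near silence meant a different remaining level for different genes. Per kilobase of exon, 3 of the 56 stayed above the sorafenib median of all genes tested: Thbs1, Mgp and Egr1. Thbs1 had a higher level per kilobase than 77.4% of genes in sorafenib and 99.4% in DMSO, and Egr1 than 60.9% in sorafenib and 96.5% in DMSO. At the other end, 27 of the 56 were in the lowest 10% of genes per kilobase in sorafenib. In DMSO, 2 of the 56 were in the lowest 25% and 8 in the highest 25%. Means were under 50 normalized counts in sorafenib for 32 genes and under 20 for 16, values that rest on few reads. Eif1ad7 alone among the 56 had a library at 0.

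The genes at the edges of the selection show how far the boundary is a convention. Just inside the fold were Aldh3a1 at 12.1-fold, Wipf3 at 12.2-fold and B4galnt3 at 12.2-fold, and just outside it were Zpld1 at 11.96-fold, Gpr37 at 11.9-fold and Nrep at 11.9-fold. Just inside the DMSO minimum were Dmp1, Galnt5 and Gpr35 with DMSO means of 204.3, 205.9 and 222. Just outside it were Olr1 with a DMSO mean of 191 and Lrrc26 with 176.

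Of the genes just outside the fold, Zpld1 had 22.2, 16.8 and 24.2 normalized counts in sorafenib, against 236, 264 and 256 in DMSO. Gpr37 had 26.7, 32.9 and 24.1 in sorafenib, against 388, 284 and 324 in DMSO, and Nrep had 68.2, 133 and 112 in sorafenib, against 953, 1379.7 and 1389 in DMSO. These 3 genes were picked among those that met the other conditions of the selection. Every sorafenib value was therefore below every DMSO value by requirement. Just outside the DMSO minimum, Olr1 had 3.7, 5.5 and 1.8 in sorafenib, against 161, 190.2 and 221 in DMSO, and Lrrc26 had 4.6, 4.6 and 9.2 in sorafenib, against 171, 152 and 206 in DMSO. Both were picked among genes at least 12-fold lower in sorafenib, with groups apart, and missed the selection by their DMSO level.

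By function the 56 genes fell into 10 extracellular matrix genes, 4 ligands and modulators, 10 cell surface receptors, 4 genes of transcription and chromatin, 5 of the muscle fibre and synapse, 3 channels and transporters, 9 enzymes, 5 genes of the cytoskeleton and polarity, and 6 that are little characterized. These classes were assigned by hand from general knowledge of each gene. Median folds ran from 14.3-fold for the enzymes to 26.6-fold for transcription and chromatin. Of the 56, 55 are protein coding and 1, Nctc1, is not. They lie on 18 chromosomes, 3 of them on X.

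**Figure D2:**
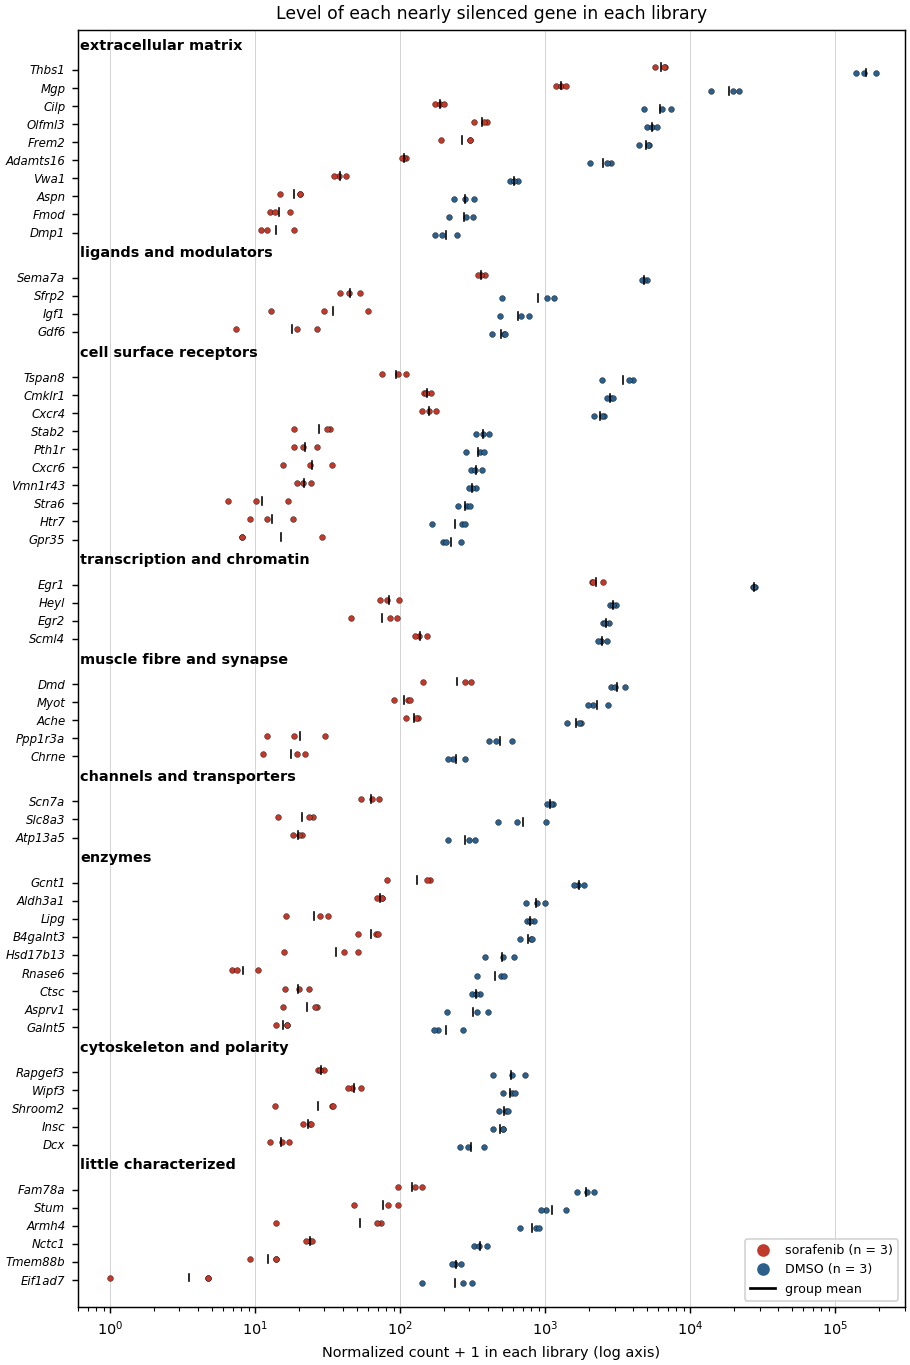
Normalized count + 1 in each library (log axis) of the 56 genes, grouped by function and ordered by DMSO mean, with sorafenib in red above DMSO in blue and a black tick at each group mean. For every gene the 3 sorafenib points lie to the left of the 3 DMSO points, as the selection required, and Armh4, Igf1 and Eif1ad7 have sorafenib points spread widely on this axis.

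What the promoters of these genes share was not used in the selection. RefSeq windows from 250 bases before to 50 after an annotated start (GRCm38.p6) were found for 44 of the 56 genes, and for 8966 genes with a DMSO mean of at least 200. Thbs1, Egr1 and Mgp were among the genes without a window. The 8966 genes were not matched to the 44 for level. Most of the 44 had few CpG dinucleotides: 27 of 44 (61.4%) held under 10 in the first window listed, beside 14.3% of the 8966 genes, and the median was 5 in the 44 and 22 in the 8966. With every listed window required to hold under 10, the shares were 52.3% of the 44 and 11.2% of the 8966. GC content had a median of 55.7% in the 44 and 61.3% in the 8966 genes. CpG-poor promoters are typical, in mammals, of genes used by particular tissues rather than by all cells.

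**Figure D3:**
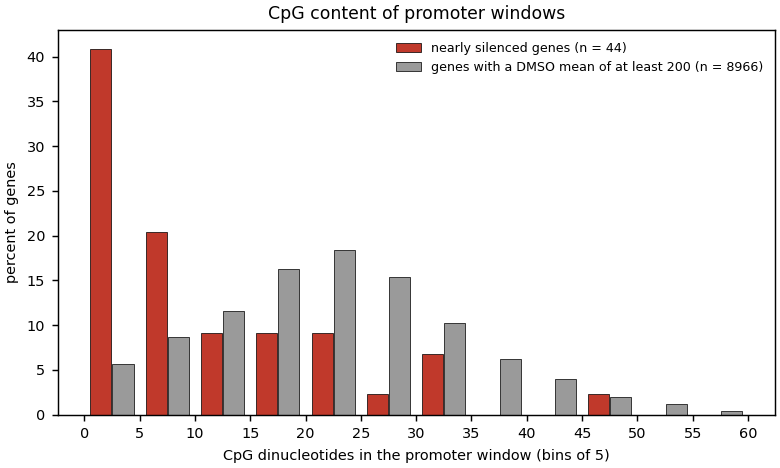
Percent of genes (vertical axis) by the number of CpG dinucleotides in the first listed promoter window (horizontal axis, bins of 5), for the 44 nearly silenced genes with a window (red) and the 8966 genes with a DMSO mean of at least 200 (grey). The red bars are tallest below 10 CpG, where 61.4% of the 44 lie beside 14.3% of the 8966.

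Short motifs were searched by letters on both strands of any listed window. The E-box CANNTG, bound by bHLH proteins such as MYOD1 and MYOG, was present for 81.8% of the 44 and 66.5% of the 8966 genes. Its form CAGCTG, every match of which is also a CANNTG match, was present for 17 of the 44 (38.6%) and 17.9% of the 8966. TATAAA was present for 15.9% of the 44 and 8.52% of the 8966, and the MEF2 site for 4 of the 44 (9.09%) and 2.28% of the 8966. The CArG box of serum response factor, added after the genes were seen, was present for 2 of the 44 (4.55%) and 1.67% of the 8966. The 44 genes had 1.52 windows each on average and the 8966 had 1.28. In the first listed window alone, CANNTG was present for 79.5% of the 44 and 62.0% of the 8966, and CAGCTG for 36.4% of the 44 and 14.8% of the 8966. TATAAA was then present for 13.6% of the 44 and 6.76% of the 8966, the MEF2 site for 6.82% of the 44 and 1.83% of the 8966, and the CArG box for 1 of the 44 (2.27%) and 1.37% of the 8966. A match is a run of letters, not a shown site of binding. The 250 bases before 1 start of each of 5 genes are printed 5′ to 3′ on the gene's own strand, from RefSeq on GRCm38.p6. They were chosen to show matches, both genes with a CArG box among them, and are not a typical sample of the 44. Capitals mark the matches named beside each coordinate; CANNTG matches other than CAGCTG are left in lower case. They are those of Dmd, the first of its 2 listed starts (chrX:82948620-82948869, + strand; a MEF2 site at -244 to -235, overlapped by a TATAAA match of the other strand, and a CArG box at -98 to -89), of Egr2, the third of its 5 listed starts and inside the gene's span (chr10:67537619-67537868, + strand; a CArG box at -72 to -63), of Chrne (chr11:70619195-70619444, - strand; CAGCTG at -138 to -133), of Rapgef3 (chr15:97767667-97767916, - strand; CAGCTG at -164 to -159 and -26 to -21) and of Aspn (chr13:49544193-49544442, + strand; TATAAA at -207 to -202, and at -178 to -173 on the other strand). The Dmd, Chrne and Aspn stretches hold 2, 1 and 2 CpG, and those of Egr2 and Rapgef3 hold 17 and 15. The first listed Egr2 window, which is not printed, held 32 CpG and no CArG box.
Dmd: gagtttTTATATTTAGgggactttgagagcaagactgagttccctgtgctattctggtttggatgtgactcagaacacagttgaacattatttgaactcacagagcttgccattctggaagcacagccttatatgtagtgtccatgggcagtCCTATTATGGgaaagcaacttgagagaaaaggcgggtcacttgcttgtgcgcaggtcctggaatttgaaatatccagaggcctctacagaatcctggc
Egr2: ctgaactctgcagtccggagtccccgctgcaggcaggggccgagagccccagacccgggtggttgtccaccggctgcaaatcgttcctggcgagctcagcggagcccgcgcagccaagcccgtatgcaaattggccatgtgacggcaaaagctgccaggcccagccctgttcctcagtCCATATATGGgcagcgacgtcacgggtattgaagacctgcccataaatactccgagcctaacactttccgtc
Chrne: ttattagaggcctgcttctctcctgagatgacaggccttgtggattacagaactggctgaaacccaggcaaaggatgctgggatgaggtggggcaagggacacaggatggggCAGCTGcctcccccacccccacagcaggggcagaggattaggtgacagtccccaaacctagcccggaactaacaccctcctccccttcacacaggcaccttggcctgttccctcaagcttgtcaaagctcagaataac
Rapgef3: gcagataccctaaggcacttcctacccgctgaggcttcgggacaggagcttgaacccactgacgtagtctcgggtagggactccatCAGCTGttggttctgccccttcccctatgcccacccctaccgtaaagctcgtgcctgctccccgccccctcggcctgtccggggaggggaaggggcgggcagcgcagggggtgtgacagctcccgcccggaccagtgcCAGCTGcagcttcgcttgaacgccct
Aspn: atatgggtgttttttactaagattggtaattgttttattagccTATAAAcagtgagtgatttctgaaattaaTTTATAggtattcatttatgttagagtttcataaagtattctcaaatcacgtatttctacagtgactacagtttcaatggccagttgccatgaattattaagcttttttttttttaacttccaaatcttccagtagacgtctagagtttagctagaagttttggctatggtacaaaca

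The extracellular matrix class held the highest DMSO levels per kilobase of exon among the 56, those of Thbs1 and Mgp. Thbs1 (chr2:118111876-118127133, GRCm38) encodes thrombospondin 1, a secreted glycoprotein that binds cell receptors and can activate latent TGF-beta. It had 5740.2, 6652 and 6574 normalized counts in sorafenib, against 139201, 189153 and 157933 in DMSO, 25.6-fold lower in sorafenib. It made up 58.6% of the summed DMSO counts of the 56 genes, a share not corrected for gene length. Mgp, the matrix Gla protein that restrains calcification, had 1189.7, 1285 and 1385 normalized counts in sorafenib, against 13868, 21545 and 19765 in DMSO, with DMSO replicate 1 the lowest of its group. Cilp, a cartilage intermediate layer protein that binds TGF-beta, had 172, 187 and 199 in sorafenib, against 4771, 6325 and 7332 in DMSO, 33.1-fold lower in sorafenib. Its DMSO values were spread by more than its sorafenib values, and the gap between the groups was required by the selection.

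Olfml3, a secreted protein with an olfactomedin domain, had 397, 319.8 and 374 normalized counts in sorafenib, against 5040.1, 5477 and 5876 in DMSO. Frem2, a large protein of basement membranes, had 189.7, 303 and 302 in sorafenib, against 5202, 4444 and 5086 in DMSO, with sorafenib replicate 1 below the other two. Adamts16, a secreted metalloproteinase, had nearly equal sorafenib values, with 108, 106 and 102 in sorafenib, against 2025, 2819.9 and 2671 in DMSO, 23.8-fold lower. Fmod and Aspn, small leucine-rich proteoglycans that bind collagen, had DMSO levels per kilobase of 82.3 and 118, below the 281 of the median gene tested. Fmod had 11.7, 16.4 and 12.7 in sorafenib, against 217, 318 and 282 in DMSO. Aspn, whose promoter is printed above, had 13.7, 19.3 and 19.3 in sorafenib, against 232, 280.0 and 319.8 in DMSO. Dmp1, a matrix protein of bone and dentin, had 10, 11 and 17.4 in sorafenib, against 247, 174 and 193 in DMSO, and Vwa1, which is found in basement membranes, averaged 37.3 ± 3.66 in sorafenib, against 607 ± 34.8 in DMSO (SD, n = 3 each). Of the 10 matrix genes, 7 were lowest in sorafenib replicate 1 among sorafenib libraries and 8 in DMSO replicate 1 among DMSO libraries, as were 41.7% and 36.2% of genes with a DMSO mean of at least 200.

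Other matrix genes were mostly lower as well. Of 49 other tested genes in a list of matrix glycoproteins and proteoglycans, 39 were lower, 3 higher and 7 did not pass (limma, adjusted p under 0.05), with a median log2 change of -1.17, beside 0.02 over all genes tested. The one with the highest counts, Fn1 (fibronectin), averaged 458943 ± 6383 normalized counts in sorafenib, against 689844 ± 91304 in DMSO (SD, n = 3 each; log2 change -0.58 ± 0.09 SE, limma adjusted p = 0.000498). Among 37 other matrix proteases and inhibitors, 21 were lower, 12 higher and 4 did not pass. There Serpinh1, a collagen chaperone, was higher (128492 ± 5762 in sorafenib, against 58741 ± 1666 in DMSO), and Timp2, a metalloproteinase inhibitor, was lower (35709 ± 1854 in sorafenib, against 142574 ± 3911 in DMSO).

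Close relatives of the matrix genes differed from one another. Thbs2, the nearest paralog of Thbs1, was 2.26-fold lower in sorafenib (5729 ± 308 in sorafenib, against 12973 ± 2252 in DMSO; log2 change -1.17 ± 0.12 SE, limma adjusted p = 6.32e-05). Thbs3 averaged 515 ± 64.1 in sorafenib, against 520.0 ± 226 in DMSO, and did not pass (limma adjusted p = 0.846), and Thbs4 was lower but had a DMSO mean of only 15.7. Olfml2a was 11.7-fold lower, just short of the selection, and Olfml2b 5.20-fold lower. Of 13 tested Adamts relatives of Adamts16, 8 were lower, 3 higher and 2 did not pass. Adamts8 was 15.4-fold lower at 10.4 ± 1.10 in sorafenib, against 161 ± 33.2 in DMSO, below the DMSO minimum of the selection, while Adamts1 was higher at 8994 ± 399.6 in sorafenib, against 3729 ± 269 in DMSO (log2 change 1.27 ± 0.06 SE, limma adjusted p = 7.88e-08).

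The 4 ligands and modulators act on Wnt, BMP, insulin-like growth factor and semaphorin signalling. Sema7a, a semaphorin held at the cell surface by a lipid anchor, had 384, 359 and 343 normalized counts in sorafenib, against 4997, 4811 and 4666 in DMSO, and both groups were tight. Gdf6, a ligand of the BMP family, had 6.4, 25.8 and 18.3 in sorafenib, against 430.4, 518 and 524 in DMSO, 29.2-fold lower. Sfrp2, a secreted Wnt modulator, had 37.5, 51.5 and 43.1 in sorafenib, against 500.5, 1142 and 1031 in DMSO. Its DMSO replicate 1 was well under the other DMSO libraries and, as the selection required, above every sorafenib value. Igf1, a growth factor for muscle, had 58.9, 29 and 11.8 in sorafenib, against 489, 774 and 682 in DMSO. Its 3 sorafenib values differed by several fold, and its fold of 19.5 became 31.8 without sorafenib replicate 1.

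Relatives of these 4 genes moved in both directions. Gdf5, a ligand of the same subgroup as Gdf6, was 8.56-fold lower (267 ± 21.1 in sorafenib, against 2286 ± 207 in DMSO; log2 change -3.09 ± 0.09 SE, limma adjusted p = 6.6e-09). Gdf15, a stress-induced hormone of the same symbol family, was higher at 7323 ± 1240.0 in sorafenib, against 279 ± 20.8 in DMSO (log2 change 4.70 ± 0.11 SE, limma adjusted p = 7.33e-09). Sfrp4 was higher at 374 ± 25.7 in sorafenib, against 48.8 ± 6.37 in DMSO, and Sfrp1 was lower at 142 ± 12.2 in sorafenib, against 229.5 ± 34.0 in DMSO. Igf2 and the receptors Igf1r and Igf2r were lower by 1.64-fold, 1.40-fold and 1.45-fold. The 19 tested semaphorins besides Sema7a counted 12 lower, 6 higher and 1 that did not pass.

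The wider signalling lists differed in how many genes were lower. Of 39 other Wnt and R-spondin genes, 28 were lower, 9 higher and 2 did not pass, with a median log2 change of -0.86. Of 37 other TGF-beta, BMP and activin genes, 27 were lower, 8 higher and 2 did not pass, with a median of -0.79. Of 70 other growth factors and cytokines, 31 were lower, 30 higher and 9 did not pass, with a median of 0.02. The growth factor with the highest counts, Csf1, was higher at 37210.0 ± 623 in sorafenib, against 12756 ± 352 in DMSO (log2 change 1.54 ± 0.03 SE, limma adjusted p = 1.58e-09).

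Among the 10 receptors, Tspan8, Cxcr4 and Cmklr1 had the highest DMSO levels per kilobase. Tspan8, a tetraspanin that organizes membrane proteins, had 73.9, 96 and 109 normalized counts in sorafenib, against 2475, 4013 and 3787 in DMSO, 36.9-fold lower. Cmklr1, the chemerin receptor, had 161, 145 and 150.5 in sorafenib, against 2835, 2670.4 and 2907 in DMSO, and Cxcr4, the CXCL12 receptor that guides migrating muscle precursors, averaged 157 ± 17.9 in sorafenib, against 2389.5 ± 211 in DMSO (SD, n = 3 each). Stra6, which takes retinol into cells, had 9.1, 15.7 and 5.5 in sorafenib, against 287, 302 and 250.5 in DMSO, 27.6-fold lower. The other 6 had means of 12.1 to 26.6 in sorafenib and 222 to 372 in DMSO: Cxcr6 (the CXCL16 receptor), Pth1r (the parathyroid hormone receptor), Htr7 (a serotonin receptor), Gpr35 (a G protein-coupled receptor), Stab2 (a scavenger receptor for hyaluronan) and Vmn1r43 (a vomeronasal receptor). Their folds lay between 14.0-fold and 19.6-fold. For Gpr35 the values were 27.8, 7.1 and 7.1 in sorafenib, against 197, 207 and 261 in DMSO, and its fold became 31.2 without sorafenib replicate 1. Vmn1r43 overlaps the tested gene Vmn1r42 on the same strand, so its level is uncertain.

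Several of these receptors are known from leukocytes and endothelium. Of 12 leukocyte markers 4 were tested, of which 3 were higher and 1 was lower. The list summed to 1014 to 1180 in sorafenib and 390 to 429 in DMSO. Ptprc, present on all leukocytes, was at most 1.0 in any library, and Adgre1 was at 0. The higher sum lay in Cd14 and Cd68, which averaged 643 and 386 in sorafenib, against 278 and 45.5 in DMSO. The 12 endothelial markers summed to 178 to 204 in sorafenib and 248 to 327 in DMSO, with Tie1 at 0 throughout. Of the 7 tested, 5 were lower, 1 was higher and 1 did not pass. Their part in the receptor values was not tested.

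The 4 genes of transcription and chromatin had the largest median fold of any class, 26.6, over single folds from 12.2 to 35.3. Egr1 and Egr2 are zinc finger factors of the immediate-early response. Egr1 had 2515, 2092 and 2118 normalized counts in sorafenib, against 27888, 27143 and 27281 in DMSO, 12.2-fold lower, and its 3 DMSO values had the narrowest relative spread among the 56 genes, a coefficient of variation of 1.45%. Egr2 (chr10:67535475-67542188), with 1 of its 5 promoter windows printed above, had 83.7, 44.6 and 93.4 in sorafenib, against 2744, 2481 and 2584 in DMSO, 35.2-fold lower. Heyl (chr4:123233556-123249875), a transcriptional repressor induced by Notch, had 96.4, 80 and 72 in sorafenib, against 3077, 2779 and 2919.9 in DMSO, 35.3-fold lower. Scml4, a relative of Polycomb proteins, averaged 137 ± 13.5 in sorafenib, against 2467 ± 169 in DMSO (SD, n = 3 each). All 4 were lowest in DMSO replicate 2 among DMSO libraries, as were 34.9% of genes with a DMSO mean of at least 200.

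Egr3, the only other EGR gene tested, was 7.64-fold lower in sorafenib (1212 ± 187 in sorafenib, against 9263 ± 112 in DMSO; log2 change -2.94 ± 0.10 SE, limma adjusted p = 7.55e-08). Of 20 other tested genes of Notch signalling, the pathway that induces Heyl, 10 were lower, 5 higher and 5 did not pass, with a median log2 change of -0.34. The genes with the highest counts were Hes6, 3.40-fold lower, and Notch2, 1.27-fold lower.

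Of the 5 genes of the muscle fibre and synapse, Dmd, Myot and Ppp1r3a act within the fibre. Dmd (chrX:82948870-85206141) encodes dystrophin, which ties the actin cytoskeleton to the matrix through the dystroglycan complex. It had 144, 279.5 and 308 normalized counts in sorafenib, against 2826, 3045 and 3546 in DMSO, 12.9-fold lower, with sorafenib replicate 1 below the other two. Myot, a Z-disc protein, had 90.2, 111 and 116 in sorafenib, against 2124, 1954 and 2710.2 in DMSO, 21.4-fold lower. Ppp1r3a, which directs a phosphatase to glycogen in muscle, had 11, 17.5 and 29.3 in sorafenib, against 409, 456 and 588 in DMSO, 25.2-fold lower.

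Ache and Chrne belong to the neuromuscular synapse. Ache, which breaks down acetylcholine, had 108, 131 and 127 normalized counts in sorafenib, against 1767, 1399 and 1708 in DMSO. Chrne, the subunit that marks the adult acetylcholine receptor and whose promoter is printed above, had 10.3, 21.1 and 18.3 in sorafenib, against 231, 213 and 279 in DMSO. All 5 genes of the class were lowest in sorafenib replicate 1 among sorafenib libraries, where 41.7% of genes with a DMSO mean of at least 200 were lowest too.

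Most other muscle genes were lower too. Of 64 other tested sarcomere genes, 62 were lower, 1 was higher and 1 did not pass, with a median log2 change of -2.09. The one with the highest counts, Myh3 (embryonic myosin heavy chain), was 4.00-fold lower at 146824 ± 19176 in sorafenib, against 587479 ± 32663 in DMSO, and Acta1 (skeletal actin) 2.76-fold lower at 166268 ± 14438 in sorafenib, against 459173 ± 15567 in DMSO. Of 45 other genes of excitation, calcium and channels, 42 were lower, 2 higher and 1 did not pass, with a median of -1.85. There Chrna1, another subunit of the receptor that Chrne joins, was 2.27-fold lower. Of 27 other genes of the dystrophin complex and muscle membrane, 21 were lower, 5 higher and 1 did not pass, with a median of -0.99. Dag1, the dystroglycan that dystrophin binds, was 3.27-fold lower at 18946 ± 949 in sorafenib, against 61883 ± 1549 in DMSO (log2 change -1.71 ± 0.04 SE, limma adjusted p = 3.38e-09).

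The 3 channels and transporters were Scn7a, Slc8a3 and Atp13a5. Slc8a3, a sodium-calcium exchanger of muscle and brain, had 24.2, 13.4 and 22.6 normalized counts in sorafenib, against 1004, 468 and 634 in DMSO, 35.0-fold lower, with DMSO values that differed by more than 2 times. Scn7a, a sodium channel protein that senses sodium, averaged 61.7 ± 9.07 in sorafenib, against 1083 ± 48.2 in DMSO, and Atp13a5, a transport ATPase, 18.8 ± 1.41 in sorafenib, against 278 ± 60.5 in DMSO (SD, n = 3 each). Of 7 tested relatives of Scn7a, 6 were lower and 1 did not pass. These included Scn4a, the main sodium channel of adult muscle, 7.06-fold lower at 1354 ± 152 in sorafenib, against 9557 ± 74.6 in DMSO. Slc8a1, the widely expressed exchanger, averaged 1019.9 ± 104 in sorafenib, against 1104 ± 57.5 in DMSO, and did not pass (limma adjusted p = 0.212).

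Of the 9 enzymes, 3 build sugar chains on proteins: Gcnt1 branches mucin-type chains, Galnt5 starts them, and B4galnt3 adds N-acetylgalactosamine. Gcnt1 averaged 129.9 ± 43.7 in sorafenib, against 1696 ± 131 in DMSO (SD, n = 3 each). Galnt5 had 15.5, 15.6 and 12.8 in sorafenib, against 180.5, 169 and 268 in DMSO, and B4galnt3 had 49.9, 66.5 and 69.7 in sorafenib, against 666, 794 and 812 in DMSO. Of 10 tested Galnt relatives, 9 were lower and 1 was higher, and both tested B4galnt relatives did not pass. Rnase6, a secreted ribonuclease, had 5.9, 6.5 and 9.4 normalized counts in sorafenib, against 490.5, 334 and 521 in DMSO, 61.9-fold lower, the second largest fold of the 56. Lipg, endothelial lipase, had 27.1, 30.9 and 15.3 in sorafenib, against 838, 747 and 777 in DMSO, 32.3-fold lower. Aldh3a1, an aldehyde dehydrogenase, had 68.4, 73.4 and 74.2 in sorafenib, against 731, 996 and 877 in DMSO, 12.1-fold lower. The rest were Hsd17b13 (a lipid droplet enzyme of liver, 14.3-fold), Ctsc (cathepsin C, 17.6-fold) and Asprv1 (a skin protease, 14.5-fold).

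The 5 genes of the cytoskeleton and polarity had means of 13.9 to 47.0 in sorafenib and 307 to 579 in DMSO. Rapgef3, the cAMP sensor EPAC1, averaged 27.3 ± 1.24 in sorafenib, against 579 ± 143 in DMSO, 21.2-fold lower, and Shroom2, an actin-binding organizer of cell shape, 26.2 ± 11.8 in sorafenib, against 521 ± 40.1 in DMSO, 19.9-fold lower. Insc, which orients the mitotic spindle, averaged 22.1 ± 1.64 in sorafenib, against 486 ± 43.4 in DMSO (SD, n = 3 each). Dcx, a microtubule protein of migrating neurons, averaged 13.9 ± 2.19 in sorafenib, against 307 ± 63.0 in DMSO, and Wipf3, a partner of WASP proteins, had 45.7, 42.5 and 52.8 in sorafenib, against 586, 512 and 621 in DMSO. Relatives went both ways. Wipf1 was higher at 8861 ± 288 in sorafenib, against 3316 ± 126 in DMSO (log2 change 1.42 ± 0.04 SE, limma adjusted p = 7.51e-09) and Wipf2 was higher too, so in this family only Wipf3 was among the nearly silenced. Shroom3 was 3.71-fold lower and Shroom4 higher, and Rapgef4, the other cAMP-sensing member, was 3.50-fold lower while Rapgef2 was higher. Of 7 tested markers of neurons and glia, 2 were lower, Stmn2 among them, 2 higher, Tubb3 among them, and 3 did not pass, and Rbfox3, Snap25 and Sox10 were at 0.

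The 6 little characterized genes were Fam78a (15.9-fold lower), Stum (14.9-fold), Armh4 (15.8-fold), Tmem88b (21.4-fold), Nctc1 (15.6-fold) and Eif1ad7. Armh4 had 13, 73.1 and 68 normalized counts in sorafenib, against 863, 672 and 904 in DMSO, with sorafenib replicate 1 well under the others. Nctc1 (chr7:142544609-142558596) is a non-coding transcript beside the imprinted H19 gene. Eif1ad7 had 3.7, 3.7 and 0 in sorafenib, against 139.5, 309 and 268 in DMSO, and its ratio of 97.6 was the largest of the 56, on 2.45 normalized counts in sorafenib. It belongs to a set of near-identical copies on chromosome 12, where reads cannot be assigned with certainty. Of 6 tested relatives, Eif1ad3, Eif1ad6, Eif1ad8, Eif1ad10 and Eif1ad15 were lower, and the widely expressed Eif1ad was higher at 5443 ± 231 in sorafenib, against 2520.3 ± 72.2 in DMSO.

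Over all families, 28 had a relative tested, giving 127 relatives by shared symbol root. Of these 82 were lower (64.6%), 31 higher (24.4%) and 14 did not pass, beside 37.8% lower and 38.8% higher of all genes tested. The median log2 change of the relatives was -0.68, beside 0.02 for all genes tested. With libraries scaled to equal totals, which moves the median of all genes to 0.17, 76 relatives were lower and 33 higher.

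**Figure D4:**
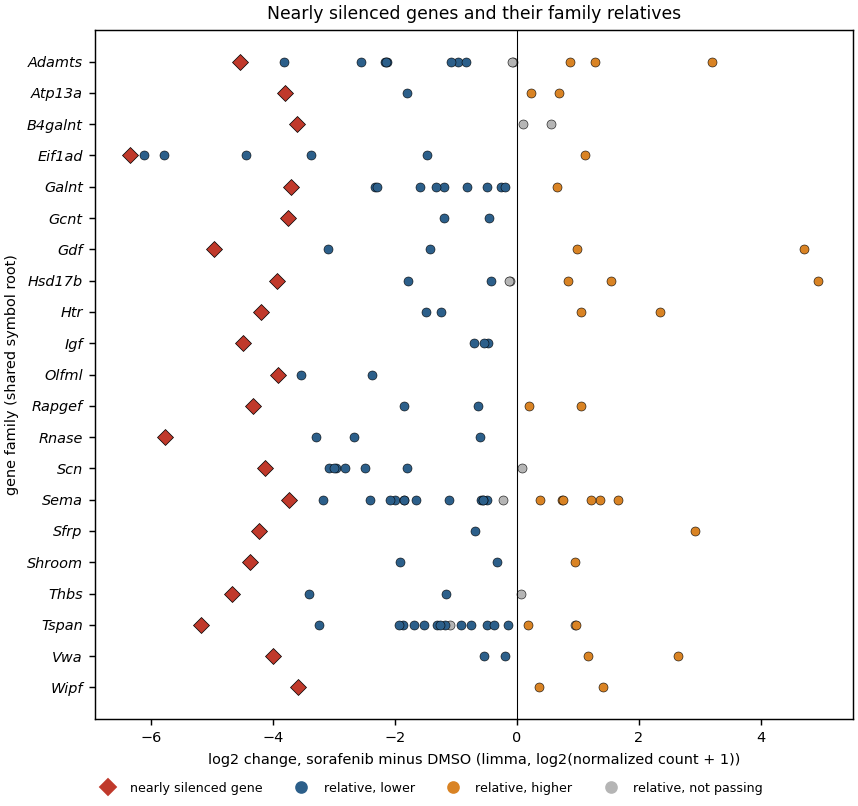
Log2 change, sorafenib minus DMSO (horizontal axis, limma on log2(normalized count + 1)), of nearly silenced genes (red diamonds) and their relatives by symbol root (circles, blue lower, orange higher, grey not passing), for families with at least 2 tested relatives. Each diamond is at the far left of its row, and circles spread to both sides of 0, with Gdf15 at 4.70 among the farthest right.

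Neighbours on the chromosome were compared next. The nearest tested gene on each side gave 107 flanking genes that are not among the 56, of which 52 were lower (48.6%), 28 higher (26.2%) and 27 did not pass, with a median log2 change of -0.28. At least 5-fold lower and called were 16 (15.0%), beside 5.08% of all genes tested. These 16 include Prelp and Lgr5, which met the numeric conditions of the selection and were left out only by name. They also include Eif1ad10 and Eif1ad15, which flank their relative Eif1ad7, in a set where reads cannot be assigned with certainty. Another is Gm44751, 0.59 kb from Ctsc on the same strand, with a DMSO mean of 30.1. The 16 are therefore not all independent of the 56. In 2 places a nearly silenced gene was the nearest neighbour of another: Vwa1 and Tmem88b lie 6.89 kb apart, and Igf1 and Stab2 850 kb apart. Of the 56, 8 overlap another tested gene, 2 of them on the same strand (Fam78a with Gm16534, and Vmn1r43 with Vmn1r42).

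Some neighbourhoods, chosen after their values were seen, were lower over several genes and others held genes that moved the other way. Around Aspn lie genes of related proteoglycans: Omd was 25.7-fold lower at 4.71 ± 2.22 in sorafenib, against 121 ± 13.6 in DMSO, Ogn 6.19-fold lower at 4068 ± 756 in sorafenib, against 25175 ± 1174 in DMSO, and Ecm2 5.22-fold lower. Fmod has Prelp, also a leucine-rich proteoglycan, as its neighbour at 37.7-fold lower, and on the other side Btg2, with a log2 change of -0.17. Sema7a and Stra6 flank Cyp11a1, which was 8.17-fold lower, and Tspan8 has Lgr5, 136-fold lower, 229 kb away. Prelp and Lgr5 met the numeric conditions and were left out by name, so their large folds were selected. Rnase6 lies between Rnase4, 1.53-fold lower, and Rnase1, 11.1-fold lower. Nctc1 lies between Mrpl23, which did not pass, and H19, 3.45-fold lower at 174023 ± 3979.9 in sorafenib, against 600967 ± 38826 in DMSO.

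In other places a neighbour was higher, or both were. The sides of Thbs1 differed. Gpr176, 150 kb away, was higher at 1007 ± 64.2 in sorafenib, against 159.7 ± 15.8 in DMSO (log2 change 2.65 ± 0.10 SE, limma adjusted p = 2.79e-08). Gm13986, on the other side and 0.674 kb away, was lower at 44.4 ± 10.2 in sorafenib, against 100.1 ± 13.9 in DMSO. Heyl lies between Ppie and Pabpc4, both higher, by log2 changes of 0.51 and 0.52. Egr2 lies between Nrbf2 and Ado, both higher, by 0.33 and 0.38. Vwa1 and Tmem88b lie between Atad3a and Mrpl20, both higher, by 0.54 and 0.31.

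**Figure D5:**
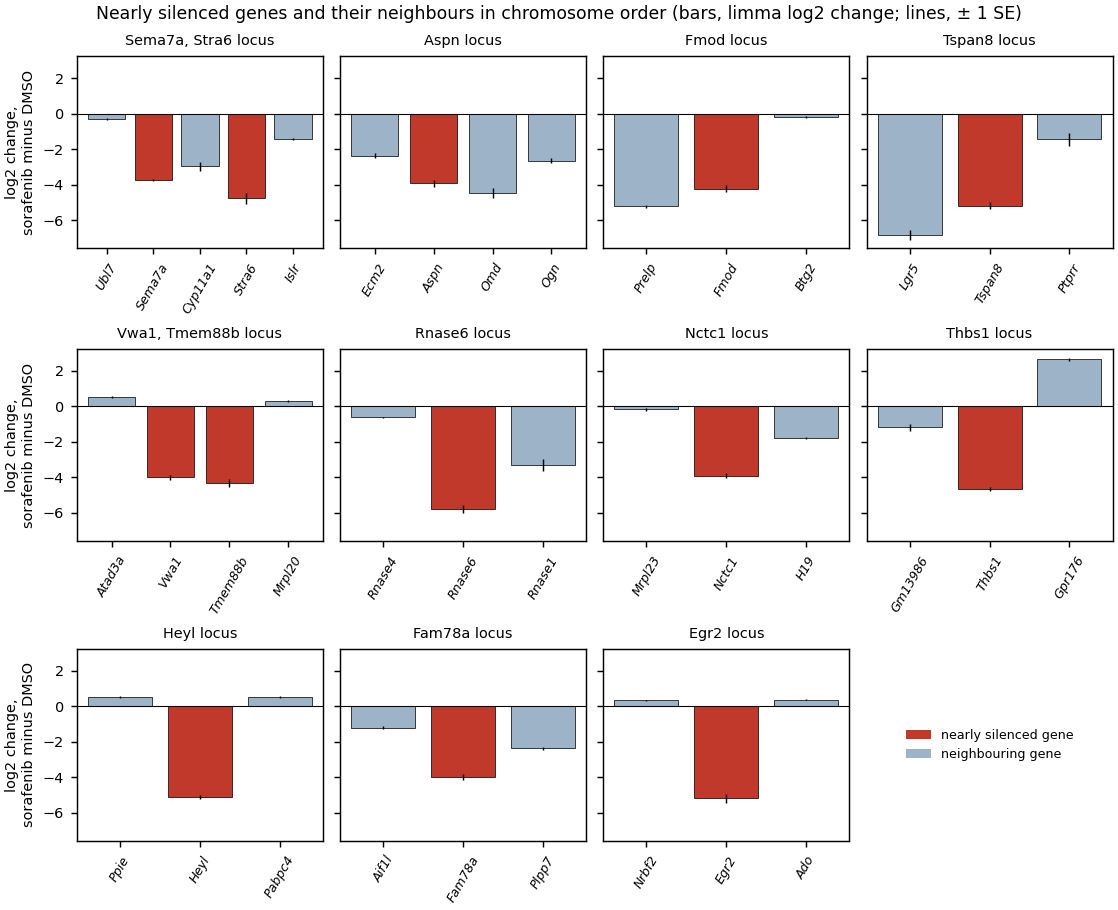
Log2 change, sorafenib minus DMSO (vertical axis, limma on log2(normalized count + 1), lines ± 1 SE), of nearly silenced genes (red) and the tested genes next to them (blue) in chromosome order, in 11 neighbourhoods chosen after their values were seen. Omd, Prelp and Lgr5 reach further down than the red genes beside them, while Gpr176 is above 0 beside Thbs1 and the neighbours of Heyl and Egr2 are slightly above 0. Prelp and Lgr5 met the numeric conditions of the selection and were left out by name.

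Between replicates, the coefficient of variation of the 56 genes had a median of 18.8% in sorafenib and 13.8% in DMSO, beside 3.94% in sorafenib and 4.04% in DMSO for genes with a DMSO mean of at least 200. The comparison was not matched for level. The median sorafenib mean was 34.1 normalized counts in the 56 genes and 1259 over all genes tested, so many of the 56 rest on few reads in sorafenib. Among sorafenib libraries 28 of the 56 (50.0%) were lowest in replicate 1, as were 41.7% of genes at that DMSO level. Among DMSO libraries 27 were lowest in replicate 1 (48.2%, beside 36.2% of genes), 23 in replicate 2 (41.1%, beside 34.9%) and 6 in replicate 3 (10.7%, beside 28.9%). No group overlapped another for any of the 56, since the selection did not allow it. In the authors' deposited table, the log2 fold changes of the 56 genes ran from -5.82 to -3.31.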

How the data were processed

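Poly(A) RNA of 3 sorafenib and 3 DMSO cultures of C2C12 myotubes was sequenced in independent experiments, per the labels. The deposited signal values are counts per gene that the authors normalized in DESeq2, as the submitters' processing notes and the file headers show; those notes also name bcl2fastq and GRCm38.p6. The read counter is not named outright in the sources used, although the library column headers end in quant sf. The authors also deposited log2 fold changes, a Wald score and p-values for each gene. Raw counts were not used here, so no count model was fitted, and depth was judged from the most common low nonzero value of each library.

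The selection, the functional classes and the gene lists were chosen with earlier results of these data known. A gene was tested if 3 or more libraries held at least 10 normalized counts (16645 genes). The test was limma 3.58.1 (R 4.3.3; trend, robust) on log2(normalized count + 1), with group as the only term and Benjamini-Hochberg adjustment over all genes tested at 0.05. Folds are ratios of group means. Library values are given for the 12 genes with the highest DMSO mean, the 12 with the largest fold, those at the edge of the selection and those on a list; some items are not reported here. Genes outside the 56 are relatives by symbol root, the 2 of a list with the highest counts, or were chosen after their values were seen. Relatives share the symbol letters before the final digits, in families of at most 25 genes. Positions come from GENCODE M21 (GRCm38) by gene identifier, because those in the deposited table differ from that build. Tables and plots were made in Python 3.11.15, using pandas 2.3.3 and matplotlib 3.10.9.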

Additional observations from a re-analysis of the deposited data

How the results depend on the processing

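Each setting was changed alone. Of the 56 genes, 46 remained with libraries scaled to equal totals, 50 with quantile normalization and 50 of 53 with medians in place of means. Those lost with equal totals were Ache, Aldh3a1, B4galnt3, Dmd, Dmp1, Egr1, Galnt5, Gcnt1, Sema7a and Wipf3. Egr1 was also lost with quantile normalization and without sorafenib replicate 2 or 3. Dmd was also lost with medians and without sorafenib replicate 1. The number selected was 87 at a limit of 10-fold, 39 at 15-fold, 20 at 20-fold, 68 with a DMSO mean of at least 100 and 32 with at least 500. Leaving out 1 library gave 50 to 66 genes, and 42 of the 56 were kept under every scaling, median and left-out library. The log2 changes of the 56 genes gave 722 values under the alternatives, of which 696 moved by less than 1 SD, 26 by more, and 0 changed sign. The number of genes called lower in all was 5271 to 6973 and of those called higher 5817 to 7740 over the alternatives, beside 6297 and 6453. With the replicate block they were 6231 and 6404. Same-numbered libraries correlated by 0.077, 0.045 and 0.022 in their deviations from the group means. With 3 libraries per group, these low values cannot settle whether libraries are paired by number. The library names alternate between DMSO and sorafenib in replicate order, but the labels used here do not say whether a number marks a shared experiment. Of the relatives, Tspan6 had a log2 change of 0.0063 with equal totals, beside -0.15. That scaling raises sorafenib values against DMSO for all genes, and it moved the median of all genes tested from 0.02 to 0.17. The DESeq2 alternative was not run, since it needs raw counts. Sorafenib means under 20 normalized counts limit how precisely folds of 16 genes are known.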
